A study of Homo sapiens with 15 samples.

Results

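The S100 calcium-binding genes were followed across 15 RNA-seq libraries from 2 human leukemia cell lines. The 7 genes S100A4, S100A6, S100A8, S100A9, S100A10, S100A11 and S100A12 were taken by symbol from the 26485 genes of the deposited count table, where each had 1 entry. Of these 7, 6 had enough counts to be tested, among 17243 genes in all, and S100A12 did not. U937 and ML1 are human lines that the labels place under acute myeloid leukemia (U937 is a monocyte-like line and ML1 a myeloblastic one). U937 cells received 10 nM prexasertib, an inhibitor of the checkpoint kinase CHK1, together with 350 nM of the code-named compound LSN622666 (the combination), or 10 nM prexasertib, or diluent. ML1 cells received 10 nM prexasertib or diluent. All 5 groups were treated for 24 h, held 3 libraries each, and also contained 5 µM Q-VD-OPh, a caspase inhibitor, so that diluent cells were not free of drug. The 15 libraries held no cells with LSN622666 alone and no ML1 cells with the combination. Each line is a single culture-adapted line, and the labels do not say that replicates came from separate cultures, so the p-values speak only of how far these libraries spread. The stated purpose of the series was a search for factors that could control TNF, and the S100 genes were not named in it.

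S100 proteins are small calcium sensors of vertebrates. They carry a pair of EF-hand motifs, form dimers, and on binding calcium expose a surface that grips target proteins. S100A8 and S100A9 pair as calprotectin, a major cytosolic protein of neutrophils and monocytes that sequesters zinc and manganese and, when released, signals through TLR4 and RAGE. S100A12, another granulocyte alarmin, is also a ligand of RAGE. S100A10 stays in an open state without calcium and binds ANXA2 at membranes, S100A11 binds ANXA1 and ANXA2, S100A4 binds non-muscle myosin heavy chain, and S100A6 binds the SIAH-interacting protein CACYBP.

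The 7 genes lie on chromosome 1 of GRCh38, spread over 1567222 bp of the S100 cluster region (GENCODE v29). S100A10 (151982915 to 151994390, minus strand) and S100A11 (152032506 to 152047907, minus strand) sit 38115 bp apart. A gap of 1309946 bp separates S100A11 from S100A9 (153357854 to 153361027, plus strand). S100A12 (153373706 to 153375649) and S100A8 (153390032 to 153391188), both on the minus strand, follow within 12678 and 14382 bp of the gene before them. S100A6 (153534599 to 153536244) and S100A4 (153543613 to 153550136), also on the minus strand, are 7368 bp apart. S100A9 is thus the only one of the 7 on the plus strand.

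The 250 bases upstream of the RefSeq start are shown for 3 genes on which the comparisons below turn: S100A11, with the smallest adjusted p after prexasertib, S100A9, with the largest log2 difference between lines among the 6 tested genes, and S100A4, which was lower after prexasertib in both lines. The build is GRCh38.p14, each sequence runs 5′ to 3′ on the gene's own strand, and capitals mark a motif match. The windows are chr1:152037005-152037254 (minus strand) for S100A11, chr1:153357604-153357853 (plus strand) for S100A9 and chr1:153545807-153546056 (minus strand) for S100A4.
S100A11: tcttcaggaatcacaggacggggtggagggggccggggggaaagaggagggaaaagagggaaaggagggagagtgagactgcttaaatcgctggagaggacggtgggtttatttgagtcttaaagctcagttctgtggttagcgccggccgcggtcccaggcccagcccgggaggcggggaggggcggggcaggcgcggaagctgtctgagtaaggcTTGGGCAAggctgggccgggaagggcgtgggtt
S100A9: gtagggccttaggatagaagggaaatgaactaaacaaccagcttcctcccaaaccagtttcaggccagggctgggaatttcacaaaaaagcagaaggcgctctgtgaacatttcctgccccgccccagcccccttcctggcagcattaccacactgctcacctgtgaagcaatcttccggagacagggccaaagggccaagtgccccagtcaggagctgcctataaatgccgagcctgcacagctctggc
S100A4: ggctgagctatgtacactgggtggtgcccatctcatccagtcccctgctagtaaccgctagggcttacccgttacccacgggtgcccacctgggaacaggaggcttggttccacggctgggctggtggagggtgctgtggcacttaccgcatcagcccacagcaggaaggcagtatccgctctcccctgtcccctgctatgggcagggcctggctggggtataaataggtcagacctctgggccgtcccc
3 motifs were searched on both strands: TTGCNNAA for C/EBP, TGANTCA for AP-1 and GAGGAAGT for PU.1. Of 35116 RefSeq upstream windows of the same length, 9.05% held the first, 6.57% the second and 2.17% the third. S100A11 held 1 C/EBP match, read on the minus strand of the window, from 33 to 26 bases before the start. S100A12 held a C/EBP match from 94 to 87 bases and an AP-1 match, TGAATCA, from 57 to 51 bases before its start. These letters were not found in the windows of S100A4, S100A6, S100A8 (3 start sites), S100A9 or S100A10. A match is a description of the sequence, and binding was not measured here.

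The libraries held between 49011222 and 87301014 counts, and library profiles within a group correlated at 0.982 to 0.9937 (Pearson r over genes, log2 CPM). Leukocyte and myeloid markers were present in both lines: 6 of 6 averaged at least 1 CPM in every group except ML1 diluent, where ANPEP averaged 0.691 CPM. Epithelial markers summed to at most 9.44 CPM in any library. The 10 monocyte markers summed to 782 to 886 CPM in ML1 prexasertib libraries, against 211 to 241 CPM in ML1 diluent libraries. In U937 the same sum was 254 to 292 CPM with the combination, 308 to 314 CPM with prexasertib and 301 to 316 CPM with diluent. The 10 neutrophil granule and progenitor markers summed to 3490 to 5210 CPM in ML1 prexasertib libraries, against 8420 to 10400 CPM in ML1 diluent libraries. In U937 that sum was 1490 to 2040 CPM with the combination, 1180 to 1810 CPM with prexasertib and 2220 to 2820 CPM with diluent. The 5 fibroblast and endothelial markers, of which PECAM1 is also found on leukocytes, summed to 218 to 297 CPM in ML1 prexasertib and 44.7 to 55.7 CPM in ML1 diluent libraries. Nearly all of that sum was PECAM1, which averaged 247 ± 43.1 CPM and 48.4 ± 5.90 CPM in these groups (SD, n = 3). PDGFRB, the next highest of the 5 in ML1 prexasertib cells, averaged 1.17 CPM there. In bulk RNA such as this, fewer cells of a type and less RNA per cell cannot be told apart.

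Together the 7 genes took 0.0527% to 0.058% of all counts in U937 combination libraries, 0.0439% to 0.0552% with prexasertib and 0.0528% to 0.0635% with diluent. In ML1 they took 0.0385% to 0.049% with prexasertib and 0.0363% to 0.0389% with diluent. Per kilobase of exon, the order of levels was much the same in the 3 U937 groups. In U937 diluent cells S100A11 stood at 277 ± 8.26 CPM per kb, S100A6 at 225 ± 24.1, S100A4 at 154 ± 22.9, S100A10 at 16.7 ± 1.08, S100A9 at 16.1 ± 6.27 and S100A8 at 0.704 ± 0.216 (SD, n = 3). S100A10 and S100A9 did not differ beyond their spread in any U937 group, and they traded places in the prexasertib group, at 14.2 ± 1.30 and 21.4 ± 11.7 CPM per kb. In ML1 prexasertib cells S100A11 led at 314 ± 38.8 CPM per kb, ahead of S100A4 at 117 ± 21.9 and S100A6 at 65.5 ± 11.1. In ML1 diluent cells S100A4 and S100A11 stood side by side, at 166 ± 9.94 and 153 ± 9.09 CPM per kb, with S100A6 next at 61.9 ± 2.79. S100A8 was last of the 6 tested genes in every group.

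**Figure D1:**
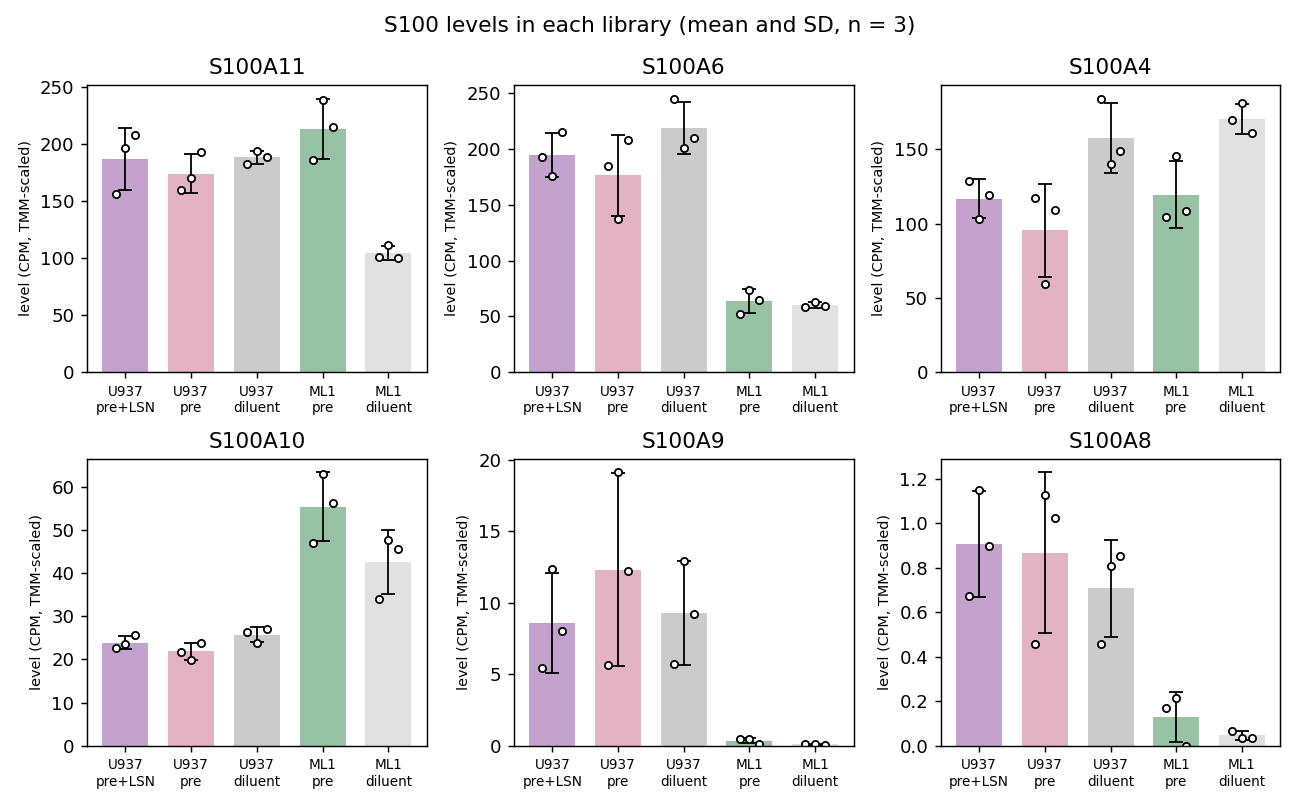
Level of the 6 tested genes (vertical axis, CPM after TMM scaling, each panel with its own scale from 0) in the 5 groups, where pre is prexasertib and LSN is LSN622666. Bars are means, error bars the SD (n = 3) and open circles the libraries. S100A11 in ML1 diluent cells, at 100 to 111 CPM, lies below every other group, while S100A6, S100A9 and S100A8 separate the U937 groups from the ML1 groups.

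The prexasertib comparison of each line asked which of these genes moved 24 h after CHK1 inhibition. In edgeR (quasi-likelihood F test, p-values adjusted by Benjamini and Hochberg over the whole table), 3 of the 6 tested genes rose in ML1 (S100A11, S100A9 and S100A10) and 1 fell (S100A4). Among all genes tested in ML1, 25.3% were called higher and 23.5% lower. In U937 prexasertib cells 1 of 6 fell (S100A4), against 12.8% of all genes called lower. None of the 6 was called higher in U937 prexasertib cells by edgeR, where 18.3% of all genes were; 0 had an unadjusted p under 0.05 in that direction, and DESeq2 called 0.

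The 2 comparisons of the combination in U937 gave no call in the fit without a replicate block. With the replicate number as a block, 1 gene, S100A9, was called lower against prexasertib, and 1, S100A4, was called lower against diluent. The combination and prexasertib libraries were taken as paired by number, from the correlation of their deviations. That block also covered the U937 diluent and ML1 libraries, which were not taken as paired. Against prexasertib, 0 of 6 were called higher and 0 lower by edgeR, where 11.9% and 17.1% of all genes were; 0 reached an unadjusted p under 0.05 either way, and DESeq2 called 0. Against diluent, 0 were called higher and 0 lower, where 6.88% and 4.11% of all genes were; 1, S100A4, was lower at an unadjusted p under 0.05, and DESeq2 called 0. These comparisons share their prexasertib, combination or diluent libraries with each other. The prexasertib effect itself differed between the lines for 2 of 6, S100A11 and S100A10, both lower in U937 than in ML1, against 12.3% of all genes. No gene of the 6 had an effect called higher in U937 by edgeR, where 12.4% of all genes did; 0 reached an unadjusted p under 0.05 and DESeq2 called 0. Between the lines under diluent, 4 of 6 were higher in U937 and 1 was lower, beside 32.0% and 29.4% of all genes. S100A8 and S100A9 passed the low-count filter through the U937 libraries only, so their part in that last count was open to 1 direction. The libraries of the groups compared did not overlap for 3 of 6 genes in ML1 prexasertib against diluent (59.2% of all genes) and for 1 in U937 (44.0%). They did not overlap for 0 of 6 in the combination against prexasertib (42.2%), for 1 against diluent (35.7%) and for 5 between the lines (69.3%).

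**Figure D2:**
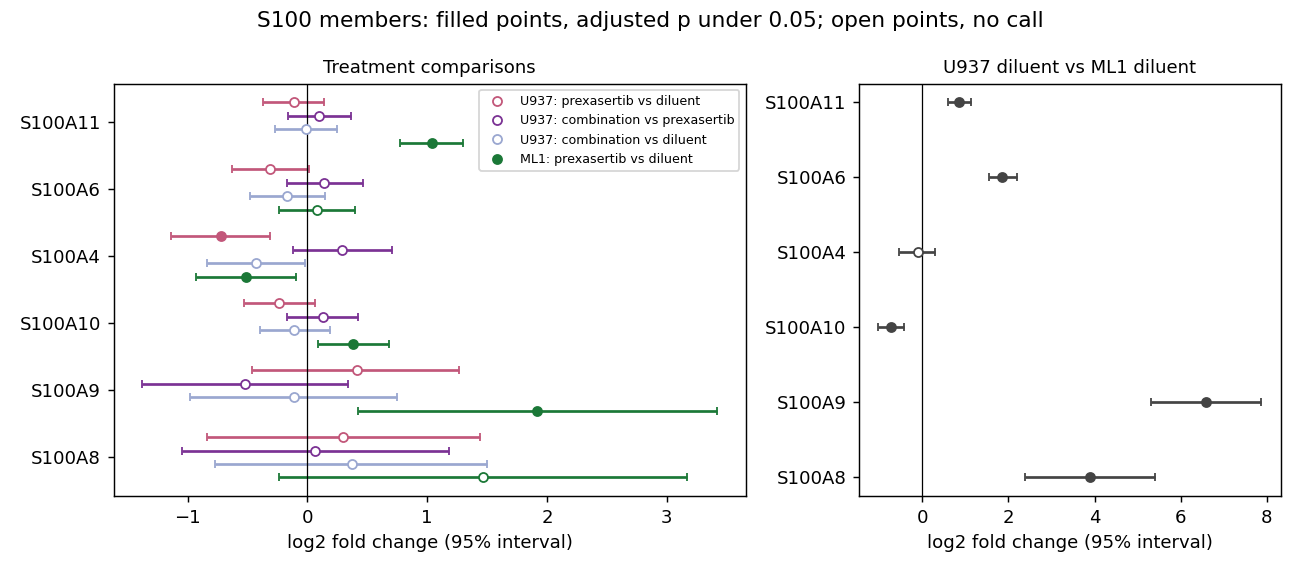
Log2 fold change (horizontal axis) of the 6 tested genes with its 95% interval, for the 4 treatment comparisons (left) and for U937 diluent against ML1 diluent (right); filled points have an adjusted p under 0.05. S100A11 in ML1 lies at 1.04 with an interval of 0.77 to 1.3, while the 3 U937 intervals of S100A11 all include 0.

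S100A9 and S100A8, the calprotectin pair, were expressed mainly in U937. S100A9 had 5.44, 12.4 and 8.01 CPM in U937 combination libraries, 5.62, 19.1 and 12.2 CPM with prexasertib and 5.71, 12.9 and 9.26 CPM with diluent. In ML1 it had 0.462, 0.479 and 0.147 CPM with prexasertib, against 0.136, 0.107 and 0.0355 CPM with diluent. The 3 U937 groups overlapped one another throughout, every ML1 library lay below every U937 library, and the 2 ML1 groups did not overlap. Under diluent S100A9 was higher in U937 than in ML1 by 6.59 ± 0.61 on the log2 scale (SE, adjusted p = 4.7e-08). S100A9 passed the low-count filter through the U937 libraries only, so a call between the lines could come in 1 direction only.

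S100A8 had 0.672, 1.15 and 0.899 CPM in U937 combination libraries, 0.456, 1.13 and 1.02 CPM with prexasertib and 0.458, 0.81 and 0.855 CPM with diluent. In ML1 it had 0.171, 0.213 and 0 CPM with prexasertib, against 0.0679, 0.0356 and 0.0355 CPM with diluent. Groups of the same line overlapped, and the lines did not. The diluent difference of U937 over ML1 was 3.89 ± 0.72 on the log2 scale (adjusted p = 0.00014), smaller than that of S100A9. The same limit holds, as S100A8 also passed the low-count filter through the U937 libraries only.

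After prexasertib, S100A9 rose in ML1 by 1.92 ± 0.71 on the log2 scale (95% interval 0.42 to 3.42, adjusted p = 0.033), in 3 of 3 libraries. This call rested on few counts, with 27, 27 and 8 counts in the prexasertib libraries and 8, 9 and 2 in the diluent libraries. It ended without ML1 prexasertib replicate 1 (1.71, adjusted p = 0.12) or replicate 2 (1.66, 0.11), and without ML1 diluent replicate 2 (2.05, 0.074) or replicate 3 (1.59, 0.11). The monocyte marker sum and the fibroblast and endothelial sum, nearly all of it PECAM1, also rose in ML1. The neutrophil granule and progenitor sum fell, and the values of these sums are given above. Their part in the S100A9 difference was not tested. S100A8 in ML1 gave 1.47 ± 0.81 (interval -0.24 to 3.17, adjusted p = 0.15), with 10, 12 and 0 counts in prexasertib libraries and 4, 3 and 2 in diluent libraries. Without ML1 prexasertib replicate 3, the library with 0 counts, its log2 fold change was 2.03 (adjusted p = 0.015).

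In U937, the prexasertib effect on S100A9 was 0.41 ± 0.41 (interval -0.46 to 1.27, adjusted p = 0.47) and that on S100A8 was 0.30 ± 0.54 (-0.84 to 1.44, 0.70). These intervals leave room for changes of over 1 log2 unit upward. Against prexasertib, the combination gave -0.52 ± 0.41 for S100A9 (-1.38 to 0.34, adjusted p = 0.36) and 0.06 ± 0.53 for S100A8 (-1.05 to 1.18, 0.95). Replicate numbers were taken as pairs for the libraries of these 2 groups. With the replicate number as a block, S100A9 was lower with the combination by 0.44 ± 0.15 (a log2 fold change of -0.44, adjusted p = 0.029). That block also covered the U937 diluent and ML1 libraries, whose numbers were not taken as pairs, and a block on the 2 paired groups alone was not fitted. The difference of the prexasertib effect, U937 minus ML1, was -1.52 ± 0.83 for S100A9 (adjusted p = 0.20) and -1.16 ± 0.97 for S100A8 (0.43). With the replicate block the S100A9 difference was called lower (adjusted p = 0.003).

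The 2 genes also moved together among replicates. In all 3 U937 groups, replicate 1 was the lowest library for both genes and replicate 2 the highest for S100A9. Of the 15 libraries, 13 deviated from their group mean in the same direction for S100A8 and S100A9. In U937, S100A8 made up 11%, 8.51% and 10.1% of the summed S100A8 and S100A9 counts with the combination, 7.51%, 5.56% and 7.74% with prexasertib and 7.42%, 5.89% and 8.46% with diluent. The lowest combination share lay above the highest share of both other groups. The means were 9.87 ± 1.26%, 6.94 ± 1.2% and 7.26 ± 1.29% (SD, n = 3). The exact two-sided permutation p, with libraries taken as unpaired, was 0.1 for the combination against either group. It was 0.7 for prexasertib against diluent, and 0.1 is the smallest p that 3 against 3 allows.

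S100A12, the remaining myeloid alarmin, was close to absent from these libraries. It had 2 counts in U937 combination replicate 2 and 2 counts in U937 prexasertib replicate 2, and 0 counts in the other 13 libraries. Over a group this was 0.00939 CPM with the combination (exact Poisson 95% interval 0.00114 to 0.0339) and 0.0105 CPM with prexasertib (0.00128 to 0.038). For the groups with 0 counts, the same interval reached up to 0.0205 CPM in U937 diluent, 0.021 CPM in ML1 prexasertib and 0.0182 CPM in ML1 diluent cells. These intervals cover counting error only, and these group CPM are over raw total counts, without TMM scaling. At this depth no difference between groups was detectable, although S100A12 lies between S100A9 and S100A8, which U937 cells expressed.

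S100A4, a calcium sensor linked to cell motility, was lower after prexasertib in both lines. It had 117, 59.6 and 109 CPM in U937 prexasertib libraries, against 184, 140 and 149 CPM in U937 diluent libraries. All 3 prexasertib libraries lay below all diluent libraries, and replicate 2 was the lowest by far. The log2 fold change was -0.72 ± 0.20 (95% interval -1.14 to -0.31, adjusted p = 0.011), and -0.50 without U937 prexasertib replicate 2 (adjusted p = 0.039). The neutrophil granule and progenitor sum was also lower in these prexasertib libraries, as given above, and its part in the S100A4 difference was not tested.

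In ML1, S100A4 had 104.5, 145 and 109 CPM with prexasertib, against 170, 181 and 161 CPM with diluent. The groups did not overlap, and the log2 fold change was -0.51 ± 0.20 (-0.93 to -0.1, adjusted p = 0.039). The ML1 call was near the threshold: the adjusted p was 0.14 without prexasertib replicate 1, 0.12 without prexasertib replicate 3, 0.073, 0.11 and 0.056 without diluent replicates 1, 2 and 3, and 0.056 with upper-quartile scaling. The effects of the lines differed by -0.21 ± 0.28 (-0.79 to 0.37, adjusted p = 0.64), an interval that covers a difference of either sign.

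With the combination S100A4 had 129, 103 and 119 CPM, within or just above the range of the prexasertib libraries and below all 3 diluent libraries. Its log2 fold change was 0.29 ± 0.20 against prexasertib (-0.12 to 0.71, adjusted p = 0.28) and -0.43 ± 0.20 against diluent (-0.84 to -0.02, adjusted p = 0.16). The second value came to an adjusted p of 0.038 without U937 prexasertib replicate 2, a library of neither group that enters the shared estimate of spread. With the replicate block the second comparison had an adjusted p of 0.026. Under diluent the U937 over ML1 log2 difference was -0.11 ± 0.20 (-0.53 to 0.3, adjusted p = 0.63).

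S100A6, the calcyclin gene, differed between the lines and gave no call for a treatment in the fit to all 15 libraries without a replicate block. It had 193, 176 and 215 CPM with the combination, 184, 137 and 208 CPM with prexasertib and 245, 201 and 210 CPM with diluent in U937. In ML1 it had 52.1, 73.6 and 65.0 CPM with prexasertib, against 58.1, 63.2 and 59.0 CPM with diluent. Treatment groups overlapped within each line, and every U937 library lay above every ML1 library. Under diluent S100A6 was higher in U937 than in ML1 by 1.86 ± 0.15 on the log2 scale (3.64-fold, 1.54 to 2.19, adjusted p = 9.4e-09).

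The prexasertib effect on S100A6 was -0.31 ± 0.15 in U937 (-0.63 to 0.01, adjusted p = 0.12) and 0.08 ± 0.15 in ML1 (-0.24 to 0.4, 0.69), with a difference of -0.39 ± 0.21 (adjusted p = 0.20). Without U937 prexasertib replicate 3 the U937 value was -0.45 (adjusted p = 0.036). With the replicate block S100A6 was also called lower in U937 (adjusted p = 0.025). The combination gave 0.14 ± 0.15 against prexasertib (-0.17 to 0.46, adjusted p = 0.51) and -0.17 ± 0.15 against diluent (adjusted p = 0.49). Like the calprotectin pair, the neighbours S100A4 and S100A6 deviated from the group mean in the same direction in 13 of 15 libraries. Replicate 2 was the lowest library for both genes in all 3 U937 groups, the replicate number that was highest for S100A9. Between the pairs, S100A4 or S100A6 and S100A8 or S100A9 deviated in the same direction in 5 of 15 libraries for each of the 4 combinations of genes. Deviations within a group sum to 0, so these counts are descriptions and carry no test.

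**Figure D3:**
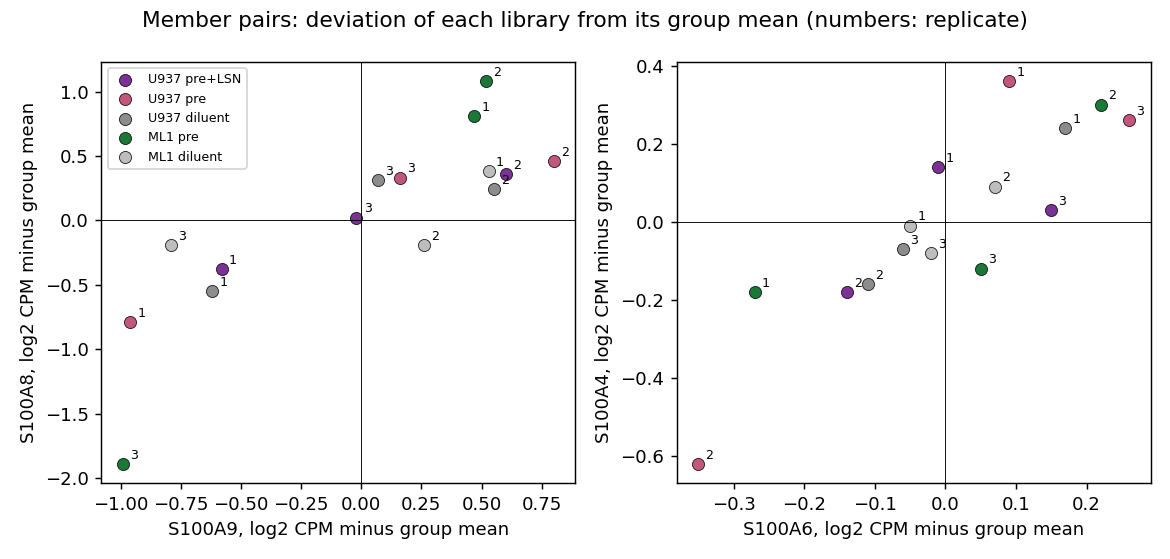
Deviation of each library from its group mean (log2 CPM) for S100A8 against S100A9 (left) and S100A4 against S100A6 (right); colours are the 5 groups, where pre is prexasertib and LSN is LSN622666, and numbers are replicates. In both panels 13 of 15 libraries fall in the lower left or upper right quadrant, and U937 replicates 2 lie to the right for S100A9 and at the lower left for S100A6 and S100A4.

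S100A11, which binds annexins ANXA1 and ANXA2, had the smallest adjusted p of the 6 genes after prexasertib in ML1. It had 186, 239 and 215 CPM in ML1 prexasertib libraries, against 101, 111 and 100.0 CPM in ML1 diluent libraries. The groups did not overlap, and S100A11 rose 2.05-fold (a log2 fold change of 1.04 ± 0.12, 95% interval 0.77 to 1.3, adjusted p = 2.2e-06). The call was made under all 23 other settings. In U937 the level was already near that of ML1 prexasertib cells: 156, 196 and 208 CPM with the combination, 160, 170 and 193 CPM with prexasertib and 183, 194 and 189 CPM with diluent. Under diluent S100A11 was higher in U937 than in ML1 by 0.86 ± 0.12 on the log2 scale (adjusted p = 1e-05).

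The U937 groups overlapped for S100A11. The log2 fold change was -0.11 ± 0.12 for prexasertib against diluent (-0.37 to 0.14, adjusted p = 0.50), 0.1 ± 0.12 for the combination against prexasertib (-0.16 to 0.36, 0.56) and -0.01 ± 0.12 for the combination against diluent (-0.27 to 0.25, 0.97). These intervals exclude an increase of the size measured in ML1. The difference of the prexasertib effect, U937 minus ML1, was -1.15 ± 0.17 (-1.52 to -0.78, adjusted p = 9.3e-05). The monocyte marker sum also rose, at 782 to 886 CPM in ML1 prexasertib against 211 to 241 CPM in ML1 diluent libraries. So did the fibroblast and endothelial sum, nearly all of it PECAM1 (218 to 297 against 44.7 to 55.7 CPM). The neutrophil granule and progenitor sum fell (3490 to 5210 against 8420 to 10400 CPM). The part of these sums in the result was not tested. S100A11 has processed pseudogene copies of up to 92.3% identity over 313 of the 594 bp of its transcript, so that some of its reads may have been placed elsewhere.

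S100A10, the partner of ANXA2, was the one gene higher in ML1 than in U937. It had 22.5, 23.6 and 25.6 CPM with the combination, 21.8, 19.9 and 23.9 CPM with prexasertib and 26.4, 23.9 and 27.0 CPM with diluent in U937. In ML1 it had 47.0, 62.9 and 56.3 CPM with prexasertib, against 34.0, 47.7 and 45.7 CPM with diluent. The U937 groups overlapped, the ML1 groups overlapped in 1 library of each, and every ML1 library lay above every U937 library. Under diluent the U937 over ML1 log2 difference was -0.72 ± 0.14 (-1.02 to -0.43, adjusted p = 0.00025).

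In ML1, S100A10 was higher with prexasertib by 0.38 ± 0.14 (0.09 to 0.68, adjusted p = 0.032). The call ended without ML1 prexasertib replicate 2 (0.26, adjusted p = 0.17) or replicate 3 (0.37, 0.079) and without ML1 diluent replicate 1 (0.24, 0.18). In U937 the effect was -0.24 ± 0.14 (-0.53 to 0.06, adjusted p = 0.21, and 0.049 with the replicate block). The difference between the lines was -0.62 ± 0.20 (-1.04 to -0.2, adjusted p = 0.030). That difference missed the threshold without U937 diluent replicate 1 (adjusted p = 0.051) or replicate 3 (0.06), ML1 prexasertib replicate 2 (0.10) or replicate 3 (0.06), or ML1 diluent replicate 1 (0.083). The combination gave 0.13 ± 0.14 against prexasertib (-0.17 to 0.42, adjusted p = 0.53) and -0.11 ± 0.14 against diluent (adjusted p = 0.65).

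The annexin ANXA2, named here after its values were seen, averaged 372 ± 6.21 CPM with the combination, 317 ± 20.6 CPM with prexasertib and 402 ± 55.4 CPM with diluent in U937. In ML1 it averaged 423 ± 48.1 CPM with prexasertib and 320 ± 36.8 CPM with diluent (SD, n = 3). The prexasertib effect on ANXA2 was 0.40 ± 0.13 in ML1 (adjusted p = 0.013; 0.096 without ML1 prexasertib replicate 2 and 0.083 without ML1 diluent replicate 3) and -0.34 ± 0.13 in U937 (adjusted p = 0.045). The U937 call ended without U937 diluent replicate 1 (adjusted p = 0.15) and without U937 prexasertib replicate 2 (0.12) or replicate 3 (0.075), and it also missed the threshold, at 0.054 to 0.058, without combination replicate 2 or 3, ML1 prexasertib replicate 3 or ML1 diluent replicate 2. The difference of the effects, U937 minus ML1, was -0.75 ± 0.18 (adjusted p = 0.0046), and it had the same sign as that of S100A10. The partners ANXA1 and CACYBP did not follow their S100 gene in every line. ANXA1 rose in U937 (1.76, adjusted p = 0.00029) and in ML1 (2.16, 9.2e-06), while its partner S100A11 rose in ML1 only. CACYBP fell in ML1 (-1.19, adjusted p = 2e-06), where S100A6 gave no call. How many partners share the sign of their S100 gene was not counted.

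The file held 14 other S100 genes, of which 6 passed the filter: S100A1, S100A2, S100A5, S100A13, S100B and S100P. In ML1 4 of these 6 rose with prexasertib, beside 25.3% of all genes, and 2 gave no call. S100A2 averaged 0.654 ± 0.186 CPM in ML1 prexasertib cells and 0.0833 ± 0.0218 CPM in ML1 diluent cells (a log2 fold change of 2.98 ± 0.55, adjusted p = 0.00022). S100A13, a gene linked to the release of FGF1, averaged 16.2 ± 3.11 CPM and 4.24 ± 0.710 CPM in the same groups (1.93 ± 0.20, adjusted p = 3.5e-07). S100A1 rose by 1.52 ± 0.26 (adjusted p = 0.00012) and S100P by 1.26 ± 0.38 (adjusted p = 0.010, and 0.065 without ML1 prexasertib replicate 1). S100A1 and S100A13 overlap by 235 bp of exon on opposite strands, and the library kit does not mark strand, so reads from that stretch cannot be told apart.

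In U937 2 of the 6 rose with prexasertib, beside 18.3% of all genes, and 4 gave no call. S100A2 averaged 0.632 ± 0.424 CPM with the combination, 3.84 ± 1.49 CPM with prexasertib and 0.334 ± 0.139 CPM with diluent, and no prexasertib library overlapped either other group. Its log2 fold change was 3.49 ± 0.46 for prexasertib against diluent (adjusted p = 5.1e-05) and -2.60 ± 0.43 for the combination against prexasertib (adjusted p = 0.00038). S100A13 rose by 0.86 ± 0.19 with prexasertib (adjusted p = 0.0036) and was higher by 1.07 ± 0.19 with the combination than with diluent (adjusted p = 0.0028). S100B moved the other way with the combination, at 4.18 ± 0.586 CPM against 2.35 ± 0.306 CPM with prexasertib (0.83 ± 0.24, adjusted p = 0.017), a call that ended without combination replicate 2 (0.056) or 3 (0.062) or U937 prexasertib replicate 2 (0.066). The prexasertib effect on S100A13 was larger in ML1, with a U937 minus ML1 difference of -1.07 ± 0.27 (adjusted p = 0.0073). None of the 6 tested genes described above was called both higher with prexasertib and lower with the combination, as S100A2 was.

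With the low counts of several of these genes, a filter of 5 CPM in 3 libraries left 2 higher calls in ML1 and 1 in U937. Under diluent all 6 of these other genes were called higher in U937 than in ML1, beside 32.0% of all genes. S100A5 and S100B passed the low-count filter through the U937 libraries only, so that their calls were open to 1 direction and the count is no result about the family. S100P averaged 65.8 ± 11.5 CPM in U937 diluent and 0.188 ± 0.0432 CPM in ML1 diluent libraries, a log2 difference of 8.45 ± 0.30 (adjusted p = 1.1e-13). S100B averaged 3.53 ± 0.264 CPM and 0.0656 ± 0.0336 CPM in the same groups.

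**Figure D4:**
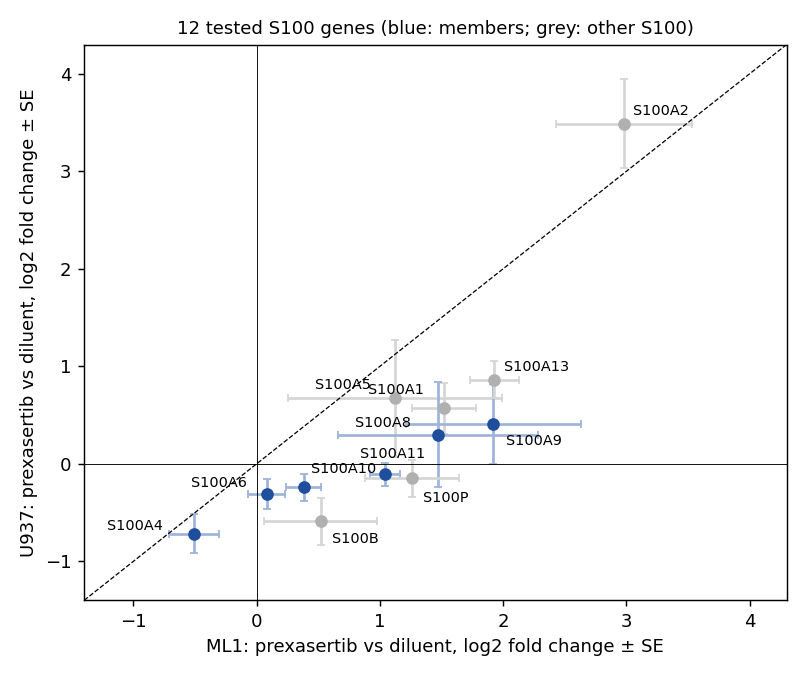
Prexasertib effect on the 12 tested S100 genes in U937 (vertical axis) against ML1 (horizontal axis), both as log2 fold change over diluent with its SE; blue points are the 6 tested members, grey points the other S100 genes and the dashed line marks equal effects. S100A2 lies near the dashed line at 2.98 in ML1 and 3.49 in U937, S100A4 lies below 0 on both axes, and S100A11 lies at 1.04 in ML1 and -0.11 in U937.

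Genes that encode binding partners and receptors of S100 proteins changed in both directions. Of 26 in the file 25 were tested. With prexasertib 9 rose and 7 fell in ML1, where 25.3% of all genes were called higher and 23.5% lower. In U937 7 rose and 7 fell, where 18.3% and 12.8% of all genes did, and the count of lower calls ran from 2 (without U937 prexasertib replicate 2) to 8 when single libraries were left out. CD68, a lysosomal glycoprotein of monocytes and macrophages, was also among the monocyte markers summed above. It averaged 354 ± 29.4 CPM in ML1 prexasertib cells and 68.8 ± 2.67 CPM in ML1 diluent cells. Its log2 fold change was 2.36 ± 0.11 (adjusted p = 3.3e-11). PLAUR, the urokinase receptor, averaged 111 ± 13.1 CPM and 15.1 ± 0.808 CPM in those groups, and in U937 24.0 ± 2.80 CPM with the combination, 51.1 ± 6.30 CPM with prexasertib and 30.2 ± 5.43 CPM with diluent. CACYBP, the S100A6 partner, fell in ML1 by 1.19 ± 0.14 on the log2 scale (adjusted p = 2e-06). The median log2 fold change of the 25 was 0.1 in ML1 and 0.04 in U937, beside 0.02 and 0 over all genes tested.

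The combination against prexasertib gave 3 higher and 6 lower calls among the 25, beside 11.9% and 17.1% of all genes, and 5 higher and 11 lower with the replicate block. Higher calls numbered 1 without combination replicate 1 or 3 or U937 prexasertib replicate 2. PLAUR fell by 1.09 ± 0.14 (adjusted p = 5.1e-05). LY96, the co-receptor through which TLR4 senses ligands, averaged 1.47 ± 0.336 CPM with the combination, 6.93 ± 2.15 CPM with prexasertib and 0.987 ± 0.610 CPM with diluent, and fell by 2.24 ± 0.43 against prexasertib (adjusted p = 0.0011). AGER, the gene of the receptor RAGE and also named after its values were seen, averaged 35.7 ± 4.77 CPM in ML1 prexasertib cells and 18.1 ± 1.60 CPM in ML1 diluent cells (a log2 fold change of 0.98 ± 0.22, adjusted p = 0.0013). The combination against diluent gave 3 higher calls (6.88% of all genes were higher) and 22 without a call, with 0 higher calls without U937 diluent replicate 2 and 1 without combination replicate 1 or 2 or U937 diluent replicate 3. The prexasertib effect was higher in U937 for 4 of the 25 and lower for 6, beside 12.4% and 12.3% of all genes. Under diluent 9 were higher and 6 lower in U937 than in ML1, beside 32.0% and 29.4% of all genes, so that these counts lie near those of all genes.

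Among 9 genes of factors reported to regulate S100A8 and S100A9, 6 rose with prexasertib in ML1 and 3 gave no call, beside 25.3% of all genes called higher. The count ran from 5 to 7 when single libraries were left out. KLF4, among these 6, had only 33 counts over the ML1 prexasertib and 9 over the ML1 diluent libraries (adjusted p = 0.043). In U937 5 rose (3 without U937 prexasertib replicate 2) and 4 gave no call, beside 18.3% of all genes. Their median log2 fold change was 1.15 in ML1 and 0.38 in U937, beside 0.02 and 0 over all genes tested. CEBPB, a C/EBP factor of monocytes, averaged 134 ± 15.2 CPM in ML1 prexasertib and 19.8 ± 2.37 CPM in ML1 diluent cells (a log2 fold change of 2.76 ± 0.14, adjusted p = 7e-11). In U937 CEBPB averaged 26.2 ± 3.46 CPM with the combination, 47.6 ± 1.51 CPM with prexasertib and 28.1 ± 4.02 CPM with diluent. It rose by 0.76 ± 0.13 with prexasertib (adjusted p = 0.00061) and fell by 0.86 ± 0.13 with the combination against prexasertib (adjusted p = 0.00022). KLF4, a monocyte differentiation factor, averaged 6.98 ± 2.29 CPM with the combination, 35.1 ± 21.2 CPM with prexasertib and 6.40 ± 0.780 CPM with diluent in U937.

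With the combination 5 of the 9 factors fell against prexasertib, beside 17.1% of all genes, and 4 gave no call. With the replicate block, which also covered the groups not taken as paired, 5 fell and 1, CEBPA, was higher (0.36, adjusted p = 0.040). Against diluent 0 of 9 were called by edgeR or by DESeq2, and 1 was higher at an unadjusted p under 0.05. The prexasertib effect of 4 factors, among them CEBPB, STAT3 and SPI1, was lower in U937 than in ML1, beside 12.3% of all genes, and the other 5 gave no call. Under diluent 4 factors were higher and 2 lower in U937 than in ML1, beside 32.0% and 29.4% of all genes. Among these, CEBPE was higher by 4.05 on the log2 scale and CEBPD lower, with a log2 difference of -7.85 and an adjusted p of 3.4e-11.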

How the data were processed

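The authors deposited 1 table of raw, unscaled read counts for 15 libraries, keyed by gene symbol. Per the labels' protocols, RNA was column-extracted and sequenced from TruSeq RNA Library Prep Kit v2 libraries (a kit without strand marking). Per the submitters' processing notes, TopHat2 2.0.14, Bowtie2 2.2.6, featureCounts 1.4.6 (Subread) and the hg38 build were used; which annotation and strand setting went into counting is not given in the sources used here. Groups and replicate numbers came from the labels, and no library was left out.

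The analysis ran edgeR 4.0.16 under R 4.3.3. Genes kept by filterByExpr (17243 of 26485) were scaled by TMM and fitted with 1 mean per group (robust quasi-likelihood, 10 residual degrees of freedom). Contrasts were tested by the edgeR quasi-likelihood F test, p-values were adjusted by Benjamini and Hochberg over the tested genes, and a call needed an adjusted p under 0.05. Levels are TMM-scaled CPM, and levels of different genes were compared only per kilobase of exon (GENCODE v29). The script was tested on simulated data. Members and gene lists were chosen with earlier results of these data known. Named were the members, the other S100 genes with a call, and listed partners and regulators with the smallest p; others are said to be named after their values were seen. Not every gene under this rule is reported here; counts and medians of the lists cover all their tested genes. The labels do not say whether replicate numbers are pairs across groups. They were taken as pairs for the U937 combination and prexasertib libraries, whose deviations from group means correlated at 0.409, 0.37 and 0.384 for replicates 1, 2 and 3. In every other pair of groups at least 1 number gave less than 0.1, and the numbers were not taken as pairs. Against U937 diluent the values were 0.386, 0.268 and 0.048 for the combination and 0.317, 0.102 and 0.062 for prexasertib. Alternatives were DESeq2 1.42.0, other size factors, other filters, fewer groups in the fit, a replicate block, thinned counts, a fold threshold and leaving out each library. The block was by replicate number within each line, over all groups of the line, paired or not. For U937 against ML1 diluent it ran over all libraries.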

Additional observations from a re-analysis of the deposited data

Results flagged for a closer look

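The prexasertib effect on S100A11 differed between the lines by -1.15 on the log2 scale (U937 minus ML1), tested as the difference of the effects itself (adjusted p = 9.3e-05), with an effect of -0.11 in U937 and 1.04 in ML1. The same test gave -0.62 for S100A10 (adjusted p = 0.030), with an effect of -0.24 in U937 and 0.38 in ML1. Groups of 3 libraries are too small for a check of single outlying values.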

How the results depend on the processing

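The 36 values of the 6 tested genes were computed again under up to 23 other settings, the fold threshold not among them, which gave 820 values. Of these, 790 stayed on the same side of the threshold, 22 lost a call, 8 gained one, and no called value changed sign. The fall of S100A4 in U937 was called under each of these 23 settings, with log2 fold changes of -0.93 to -0.5 and adjusted p of 0.00038 to 0.048. In ML1 prexasertib cells the count of higher calls was 1 with no low-count filter, and that of lower calls was 0 with upper-quartile factors and 0 with a filter of 5 CPM in 3 libraries. S100A9 in ML1 missed the threshold with no filter (1.91, adjusted p = 0.080) and in thinned counts (1.79, 0.057), S100A10 with no filter (0.37, 0.051). S100A8 was not tested under the strict filter. When calls also needed a log2 fold change of at least 1 in size, lower calls numbered 0 for prexasertib in U937, 0 in ML1, 1 for the difference of effects and 0 for U937 against ML1 diluent.

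With the replicate block, lower calls numbered 3 for prexasertib in U937 (S100A6 at -0.33, adjusted p = 0.025, and S100A10 at -0.24, 0.049, in addition to S100A4), 1 for the combination against prexasertib (S100A9) and 1 against diluent (S100A4, -0.43, 0.026). The difference of effects for S100A9 was then -1.64 (adjusted p = 0.003), and the block changed no other call of the 6 genes. Only the combination and prexasertib groups were taken as paired by number, and the labels do not say what replicates of other groups share.

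Leaving out each library in turn, lower calls ran from 1 to 2 for prexasertib in U937 and from 0 to 1 in ML1, where higher calls ran from 1 to 3. Lower calls ran from 0 to 1 for the combination against diluent, from 1 to 2 for the difference of effects, and stayed at 1 for U937 against ML1 diluent, with 4 higher. Upper-quartile factors moved the median of all genes to 0.106 for the combination against diluent, from 0.001 with TMM. Among partners and receptors, a fit to only the groups compared gave 2 lower calls for prexasertib in U937 (7 in the fit to all 15 libraries) and 1 higher for the combination against prexasertib (3), and lower calls against diluent numbered 2 with DESeq2 and 4 with the block (0). The filter of 5 CPM in 3 libraries left 2 higher calls among the other S100 genes between the lines (6). Low counts limit S100A8, S100A9 and S100A12 in ML1, and the cause of the lost calls was not tested.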

Other observations

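For each tested gene, the 3 genes of at least 5 CPM with the highest Pearson r of log2 CPM over the 15 libraries were listed, as a description with no test. The 15 libraries share the split between the lines and are not independent points. S100A8 was most like its partner S100A9 (0.958), CD48 (0.956), a surface protein of leukocytes, and SH3RF1 (0.947), among 10925 genes searched. S100A9 was most like IFFO2 (0.985), B4GALNT3 (0.982) and MICAL3 (0.981), among 10924 genes. S100A6 followed PEF1 (0.996), which encodes another EF-hand protein, MXRA7 (0.994) and XKR8 (0.992). S100A4 followed PCCB (0.943), SNTB1 (0.938) and FLOT2 (0.936). S100A10, higher in ML1, followed PFDN5 (0.988), RPS27 (0.98) and PSME2 (0.979). S100A11 followed TMSB4X (0.977), the thymosin beta 4 gene, UNC119 (0.973) and PRKAG2 (0.959).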
